A study of Mus musculus with 8 samples.

Results

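Toll-like receptors sense microbial and self nucleic acids and lipids, and 10 genes of this system were described: the receptor genes Tlr1, Tlr2, Tlr4, Tlr7 and Tlr9, and the genes of 5 factors the receptors depend on, Unc93b1, Myd88, Irak4, Irf5 and Irf8. They were taken by gene symbol from a table of 17384 genes, and all 10 were present. RNA was sequenced from spleen cells sorted for both B220 and CD3, in 4 EAF2Faslpr and 4 Faslpr libraries. EAF2Faslpr cells came from mice that lack Eaf2 and carry the lpr mutation of Fas, and Faslpr cells from mice with the lpr mutation alone, so both groups share the Fas defect. The lpr mutation inserts a transposable element into Fas, which encodes a death receptor, and lpr mice accumulate T cells that stain for B220, an isoform of CD45 also found on B cells. The sources used here do not give age, sex, strain background, the deleted part of Eaf2 or whether replicates were separate animals, so a p-value measures only how far these libraries spread, which may be technical.

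The receptors fall into surface and endosomal groups. TLR1 pairs with TLR2 at the cell surface to bind bacterial lipopeptides, and TLR4 binds lipopolysaccharide. TLR7 binds single-stranded RNA and TLR9 binds DNA in endosomes, where both are delivered by the transport protein UNC93B1. Ligand binding recruits the adaptor MyD88 and the kinase IRAK4, and the transcription factor IRF5 acts downstream on cytokine genes, while IRF8 is a transcription factor of B cells and myeloid cells. In lupus-prone lpr mice, loss of TLR7 and loss of TLR9 are known to have opposite effects on disease.

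Each library held between 15.6 and 18.6 M estimated reads (M, megareads). A count of 3 reads, used as the floor of detection, corresponded to 0.161 to 0.193 CPM, TMM-scaled counts per megaread of the 12340 genes tested. Values with ± are the mean and SD of 4 libraries. Eaf2 was 4.74 ± 1.05 CPM in EAF2Faslpr and 25.5 ± 4.50 CPM in Faslpr libraries, with a log2 fold change of −2.43 (SE 0.18) and an adjusted p of 2.9e-05. The 9 listed T cell markers were all tested and none was called. Their summed levels were 5660 to 5909 CPM in EAF2Faslpr and 5223 to 5634 CPM in Faslpr libraries, without overlap. The largest part was Ptprc, at 2312 ± 114 CPM in EAF2Faslpr and 1989 ± 311 CPM in Faslpr libraries. It is the gene of CD45, which B cells also carry. Without Ptprc the sums of the groups overlapped, and each of the 9 markers overlapped by itself. By unadjusted p under 0.05, 2 of the 9 differed. DESeq2 called 1, and edgeR called 2 without Faslpr replicate 4 and 1 without Faslpr replicate 3. EAF2Faslpr replicate 3 stood apart from the other libraries in B cell and neutrophil transcripts, and results were also computed without it.

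Tlr1, Tlr2, Tlr7, Irf5 and Irf8 rose in EAF2Faslpr cells, and Tlr4, Tlr9, Unc93b1, Myd88 and Irak4 were not called. Thus 5 of the 10 genes were called higher at an adjusted p under 0.05, where 7.14% of all genes tested were called higher, and 0 were called lower, where 4.96% of all genes tested were. By unadjusted p under 0.05, 6 of the 10 differed, Irak4 being the sixth. DESeq2 and limma-voom also called 5 of the 10, all higher. The 8 library values of a gene did not overlap between the groups for 6 of the 10, all with EAF2Faslpr higher, where 9.71% of genes tested did so in that direction and 7.96% in the other. The median log2 fold change of the 10 genes was 0.38, beside −0.01 over all genes tested. The 10 genes were chosen with earlier results of these data known, so these contrasts with all genes do not test the set. All 10 passed the filter on low counts, but Tlr2 passed through the EAF2Faslpr libraries alone, with 4 of them and 0 of the Faslpr libraries above the filter's 0.555 CPM, so its place in these counts was not independent of the direction of its difference.

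**Figure D1:**
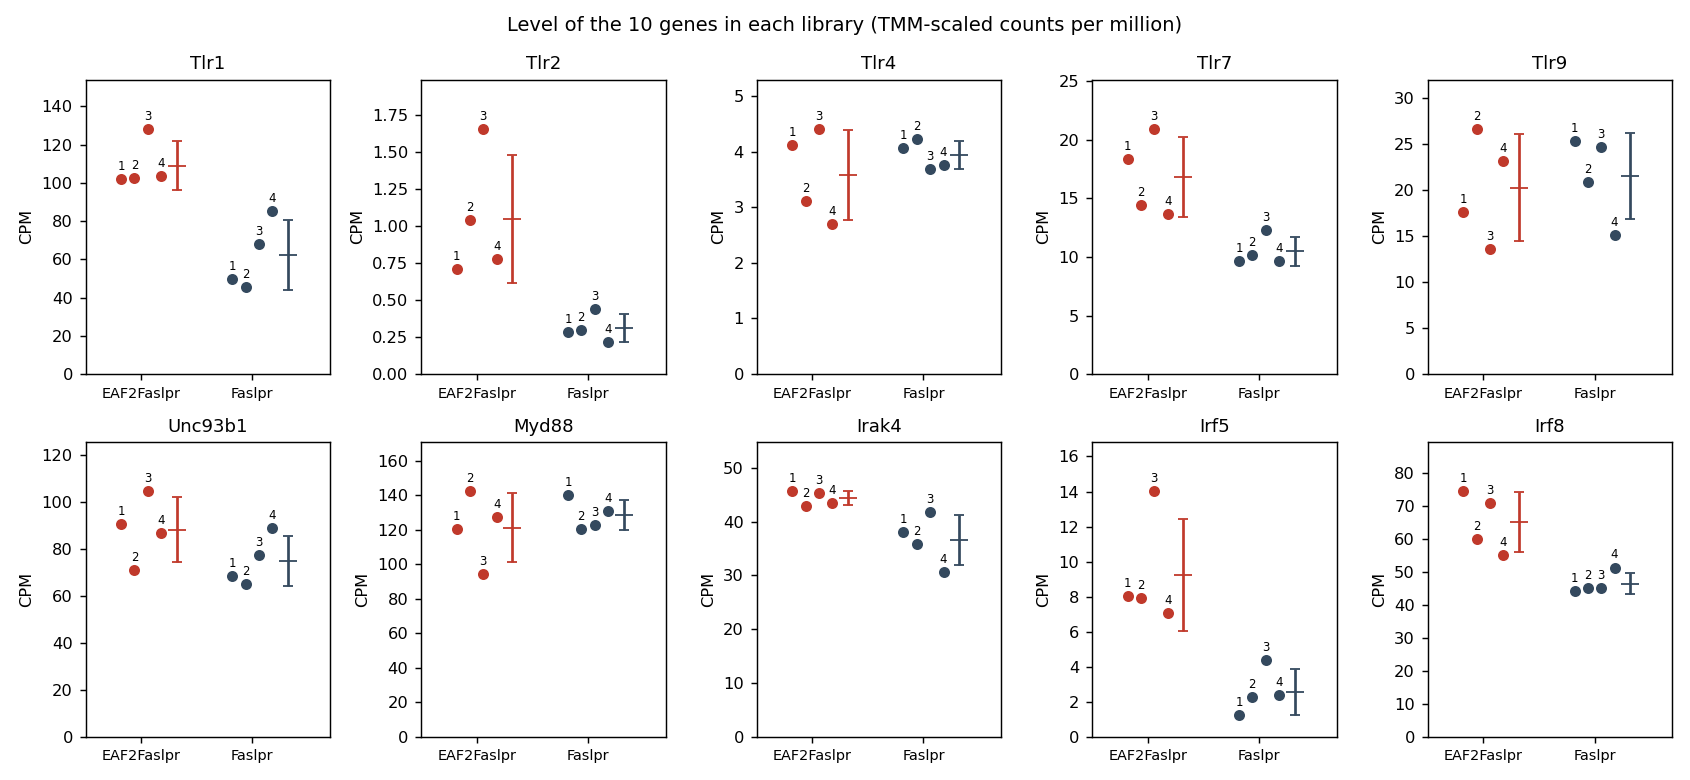
Levels of the 10 genes in each library, in CPM (TMM-scaled counts per megaread of tested genes), with EAF2Faslpr in red and Faslpr in dark blue. Each point is a library with its replicate number, and the bars beside the points are the mean and SD of 4 libraries. For Tlr1, Tlr2, Tlr7, Irak4, Irf5 and Irf8 every EAF2Faslpr point lies above every Faslpr point.

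Promoter windows from RefSeq on build GRCm38.p6, matched by symbol, were found for 7 of the 10 genes, as 9 windows of 300 bases that run from 250 bases before to 50 bases after an annotated start. Tlr4, Tlr7 and Unc93b1 were not matched. The windows were searched on both strands for an IRF element (GAAA, any pair of bases, GAAA), an ETS element of the PU.1 type (GAGGAAGT) and an NF-kB element (GGGA, any base, TTTCC), which are held by 3.44%, 3.20% and 0.411% of the 32851 windows of 27025 genes. The 3 windows with a match are shown, with that of Irf5, the gene with the largest fold change of the 10, for comparison. Capitals mark the match, and all are written 5′ to 3′ on the strand of the gene.
Tlr1, chr5:64933509-64933808, minus strand: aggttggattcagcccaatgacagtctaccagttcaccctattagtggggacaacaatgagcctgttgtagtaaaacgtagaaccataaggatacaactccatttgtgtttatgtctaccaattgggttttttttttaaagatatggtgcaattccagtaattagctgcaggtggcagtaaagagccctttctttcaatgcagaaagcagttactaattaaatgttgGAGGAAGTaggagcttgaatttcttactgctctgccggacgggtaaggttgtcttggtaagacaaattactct
Tlr9, chr9:106222348-106222647, plus strand: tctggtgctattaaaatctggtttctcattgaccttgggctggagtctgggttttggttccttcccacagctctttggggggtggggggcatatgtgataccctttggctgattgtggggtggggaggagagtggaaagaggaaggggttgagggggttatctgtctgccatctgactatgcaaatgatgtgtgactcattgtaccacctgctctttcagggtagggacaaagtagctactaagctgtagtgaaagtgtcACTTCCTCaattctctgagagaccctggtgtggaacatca
Myd88, chr9:119339969-119340268, minus strand: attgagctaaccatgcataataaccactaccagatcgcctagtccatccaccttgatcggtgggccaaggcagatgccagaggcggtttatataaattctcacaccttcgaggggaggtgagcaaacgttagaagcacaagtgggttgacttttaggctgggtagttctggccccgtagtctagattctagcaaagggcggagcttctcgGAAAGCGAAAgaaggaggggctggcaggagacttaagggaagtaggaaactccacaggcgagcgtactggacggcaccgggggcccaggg
Irf5, chr6:29526375-29526674, plus strand: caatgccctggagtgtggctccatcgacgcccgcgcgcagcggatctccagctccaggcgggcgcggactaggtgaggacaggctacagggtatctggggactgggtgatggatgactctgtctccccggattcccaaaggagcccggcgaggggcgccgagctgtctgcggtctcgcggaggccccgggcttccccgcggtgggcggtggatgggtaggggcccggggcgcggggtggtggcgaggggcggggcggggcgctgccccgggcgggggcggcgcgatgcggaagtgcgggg
Tlr1 had an ETS match that begins 23 bases before the start (position −23). Tlr9 had the same element on the opposite strand, read here as ACTTCCTC, from position 11 after the start. Myd88 had an IRF match, GAAAGCGAAA, at −40, and the Irf5 window, 74.7% G and C, held none of the 3 elements. Among the called genes with a window (Tlr1, Tlr2, Irf5 and Irf8) a match was found in Tlr1, and among those not called (Tlr9, Myd88 and Irak4) in Tlr9 and Myd88. A match is a stretch of letters in the window and not evidence of binding. The 50 bases after the start were found in the gene's own annotated transcript for 7 of the 9 windows, and not for the 2 of Tlr1.

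Of the surface receptors, Tlr1 and Tlr2 rose and Tlr4 did not pass the test. Tlr1 (gene ID 21897), which encodes the lipopeptide co-receptor, had 102, 103, 128 and 104 CPM in EAF2Faslpr replicates 1 to 4 and 49.5, 45.5, 68.0 and 85.3 CPM in Faslpr replicates 1 to 4. The groups did not overlap, and Faslpr replicate 4 was the library nearest to the EAF2Faslpr range. Its mean was 109 ± 12.8 CPM in EAF2Faslpr cells and 62.1 ± 18.3 CPM in Faslpr cells, a log2 fold change of 0.81 (SE 0.18, adjusted p = 0.0161), and it was called in all 8 fits that left out 1 library (adjusted p 0.00349 to 0.0488). Tlr1 and Tlr6, another partner of TLR2, share stretches of sequence: 7.89% of the 100-base words in annotated Tlr1 transcripts also stood in Tlr6, so the division of reads between them is uncertain. Tlr6 had 13.4, 14.3, 15.8 and 11.6 CPM in EAF2Faslpr libraries and 5.73, 5.24, 6.49 and 14.0 CPM in Faslpr libraries. Faslpr replicate 4 stood within the EAF2Faslpr values, and Tlr6 was not called (log2 fold change 0.81, adjusted p = 0.103), although it was without Faslpr replicate 4 (log2 fold change 1.24, adjusted p = 0.00123). The sum of Tlr1 and Tlr6, which does not depend on how their shared reads were divided, was 123 ± 14.2 CPM in EAF2Faslpr and 70.0 ± 22.1 CPM in Faslpr libraries (exact two-sided permutation test over 70 orderings, p = 0.0286, the smallest it can give). Most of the sum was Tlr1, whose groups were already seen not to overlap, so this p-value adds little to the result for Tlr1.

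Tlr2 (gene ID 24088), the shared partner of TLR1 and TLR6, was measured near the floor. It had 11, 19, 30 and 14 estimated reads in EAF2Faslpr replicates 1 to 4, or 0.707, 1.04, 1.65 and 0.773 CPM. In Faslpr replicates 1 to 4 it had 5, 5, 8 and 4 estimated reads, or 0.287, 0.298, 0.440 and 0.215 CPM. All EAF2Faslpr libraries were above all Faslpr libraries, with EAF2Faslpr replicate 3 highest. The means were 1.04 ± 0.432 CPM in EAF2Faslpr and 0.310 ± 0.0943 CPM in Faslpr cells, a log2 fold change of 1.73 (SE 0.39, adjusted p = 0.0162). The call was lost with both replicates numbered 4 left out (log2 fold change 1.71, adjusted p = 0.0561). Tlr2 passed the filter on low counts through the EAF2Faslpr libraries alone, so its call was not independent of its direction. Tlr4 (gene ID 21898), the lipopolysaccharide receptor, had 4.11, 3.11, 4.41 and 2.70 CPM in EAF2Faslpr libraries and 4.07, 4.23, 3.69 and 3.77 CPM in Faslpr libraries. The Faslpr values lay within the EAF2Faslpr range, and the log2 fold change was −0.14 (SE 0.20, adjusted p = 0.733).

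Of the endosomal receptors, Tlr7 rose and Tlr9 was not called. Tlr7 (gene ID 170743), the RNA sensor, had 18.4, 14.4, 20.9 and 13.7 CPM in EAF2Faslpr replicates 1 to 4 and 9.68, 10.2, 12.3 and 9.68 CPM in Faslpr replicates 1 to 4. The lowest EAF2Faslpr library lay above the highest Faslpr library. The means of 16.9 ± 3.42 CPM in EAF2Faslpr and 10.5 ± 1.26 CPM in Faslpr cells gave a log2 fold change of 0.69 (SE 0.16, adjusted p = 0.0179). The call was lost without Faslpr replicate 1 (log2 fold change 0.65, adjusted p = 0.0519) and without Faslpr replicate 2 (0.67, adjusted p = 0.0541). Tlr9 (gene ID 81897), the DNA sensor, had 17.6, 26.6, 13.6 and 23.1 CPM in EAF2Faslpr libraries and 25.3, 20.9, 24.7 and 15.1 CPM in Faslpr libraries. Both groups spanned nearly the same range, and the lowest value was in EAF2Faslpr replicate 3. The log2 fold change of Tlr9 was −0.09 (SE 0.22, adjusted p = 0.856), and its sign was not stable, at 0.06 without EAF2Faslpr replicate 3.

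The log2 ratio of Tlr7 to Tlr9 CPM within a library was 0.06, −0.89, 0.63 and −0.76 in EAF2Faslpr replicates 1 to 4, and −1.39, −1.03, −1.003 and −0.64 in Faslpr replicates 1 to 4. The groups overlapped: EAF2Faslpr replicates 2 and 4 lay among the Faslpr values, and EAF2Faslpr replicates 1 and 3 above them. The mean log2 ratio was −0.24 ± 0.71 in EAF2Faslpr and −1.02 ± 0.30 in Faslpr libraries, a difference of 0.78 that did not pass (exact two-sided permutation test over 70 orderings, p = 0.0857). So a difference between the responses of Tlr7 and Tlr9 was not shown.

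Unc93b1 (gene ID 54445), the transport protein of the endosomal receptors, had 90.5, 71.0, 104 and 86.5 CPM in EAF2Faslpr libraries and 68.2, 65.1, 77.5 and 88.9 CPM in Faslpr libraries. EAF2Faslpr replicate 2 and Faslpr replicates 3 and 4 made the groups overlap. The log2 fold change of Unc93b1 was 0.23 (SE 0.13, adjusted p = 0.304).

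Neither of the proximal signalling genes was called. Myd88 (gene ID 17874), the adaptor of all the receptors above, had 121, 142, 94.4 and 127 CPM in EAF2Faslpr libraries and 140, 120, 123 and 131 CPM in Faslpr libraries, with the lowest value in EAF2Faslpr replicate 3. Its groups overlapped, and the log2 fold change was −0.09 (SE 0.11, adjusted p = 0.708), with the sign changed to 0.01 without EAF2Faslpr replicate 3. Irak4 (gene ID 266632), the kinase that MyD88 recruits, had 45.6, 43.0, 45.3 and 43.5 CPM in EAF2Faslpr libraries and 38.1, 35.8, 41.7 and 30.6 CPM in Faslpr libraries. The 4 EAF2Faslpr values stood close together and above every Faslpr value. The difference was small, with means of 44.4 ± 1.3 CPM in EAF2Faslpr and 36.5 ± 4.67 CPM in Faslpr cells, and did not pass (log2 fold change 0.28, SE 0.09, adjusted p = 0.0886). It did pass without Faslpr replicate 3 (log2 fold change 0.35, adjusted p = 0.0361).

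Both transcription factor genes rose, Irf5 by more. Irf5 (gene ID 27056) had 8.03, 7.92, 14.0 and 7.07 CPM in EAF2Faslpr replicates 1 to 4 and 1.26, 2.26, 4.40 and 2.37 CPM in Faslpr replicates 1 to 4. The groups did not overlap, with replicate 3 the highest in each. The means were 9.25 ± 3.19 CPM in EAF2Faslpr and 2.57 ± 1.32 CPM in Faslpr cells, a 3.58-fold difference (log2 fold change 1.84, SE 0.35, adjusted p = 0.00734). Irf5 was called in all 8 fits that left out 1 library, with log2 fold changes of 1.57 to 2.23. Irf8 (gene ID 15900) had 74.5, 60.0, 71.2 and 55.3 CPM in EAF2Faslpr libraries and 44.4, 45.3, 45.1 and 51.4 CPM in Faslpr libraries. Faslpr replicate 4 came within a few CPM of EAF2Faslpr replicate 4, without overlap. The means of Irf8 were 65.2 ± 9.09 CPM in EAF2Faslpr and 46.6 ± 3.27 CPM in Faslpr cells, a log2 fold change of 0.49 (SE 0.10, adjusted p = 0.0130), and it too was called in all 8 such fits (adjusted p 0.00861 to 0.0431). The log2 ratio of Irf5 to Irf8 CPM within a library was −2.86 ± 0.37 in EAF2Faslpr and −4.31 ± 0.73 in Faslpr libraries, a difference of 1.45 (exact two-sided permutation test over 70 orderings, p = 0.0286, the smallest it can give). This ratio was tested after the values of both genes were seen, so its p-value adds little to their separate results.

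The sources used here do not give the strand setting of the counting, so reads of a gene and of a neighbour on the opposite strand could not be told apart. Such an overlap held 7.51% of the 100-base words of Irf5 (with Tnpo3), 4.69% of those of Myd88 (with Acaa1a) and 2.11% of those of Irak4 (with Twf1), in GENCODE transcripts on GRCm38. None of the partners was called. Tnpo3, the partner of Irf5, measured 91.7 ± 5.16 CPM in EAF2Faslpr and 98.0 ± 1.64 CPM in Faslpr cells (log2 fold change −0.10, adjusted p = 0.396). Acaa1a, the partner of Myd88, measured 60.7 ± 27.5 CPM in EAF2Faslpr and 85.2 ± 8.54 CPM in Faslpr cells (log2 fold change −0.49, adjusted p = 0.330), and Twf1, the partner of Irak4, differed by 0.19 on the log2 scale (adjusted p = 0.283). Tlr2, Tlr4, Tlr7, Tlr9, Unc93b1 and Irf8 shared 0 words with another gene.

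Levels of different genes can be set side by side only per transcript length, for which the authors' FPKM values were used. In EAF2Faslpr cells Myd88 was the most abundant, at 64.3 ± 10.2 FPKM, followed by Unc93b1 at 40.5 ± 6.51, Tlr1 at 38.8 ± 5.36, Irf8 at 23.4 ± 3.36 and Irak4 at 17.8 ± 0.623 FPKM (SD, n = 4). Then came Tlr9 at 5.93 ± 1.67, Irf5 at 3.75 ± 1.33, Tlr7 at 3.15 ± 0.671, Tlr4 at 0.458 ± 0.106 and Tlr2 at 0.375 ± 0.158 FPKM. The library ranges of Unc93b1 and Tlr1, of Tlr9 and Irf5, of Irf5 and Tlr7, and of Tlr4 and Tlr2 overlapped, so those neighbours were not separated.

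In Faslpr cells Myd88 stood at 67.7 ± 4.21, Unc93b1 at 34.5 ± 5.02, Tlr1 at 21.9 ± 6.75, Irf8 at 16.6 ± 1.21 and Irak4 at 14.1 ± 1.59 FPKM. The order went on with Tlr9 at 6.25 ± 1.34, Tlr7 at 1.93 ± 0.236, Irf5 at 1.04 ± 0.527, Tlr4 at 0.498 ± 0.0310 and Tlr2 at 0.113 ± 0.0340 FPKM. Here the overlapping neighbours were Unc93b1 and Tlr1, Tlr1 and Irf8, Irf8 and Irak4, and Irf5 and Tlr4. Irf5 stood next above Tlr7 in EAF2Faslpr cells, with overlapping ranges, and next below it in Faslpr cells, without overlap. The adaptor and transport genes and Tlr1 were thus expressed well above the nucleic acid receptors, and Tlr9 was above Tlr7 by mean in both groups.

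**Figure D2:**
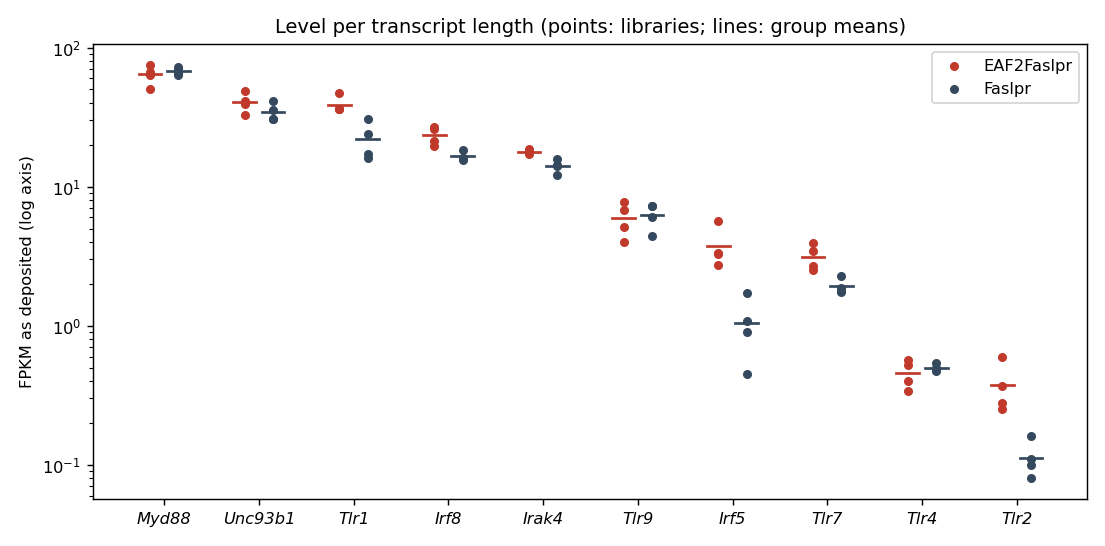
Levels of the 10 genes per transcript length, as the authors' FPKM on a log axis, ordered by the EAF2Faslpr mean. Points are libraries and lines are means of 4, EAF2Faslpr in red and Faslpr in dark blue. Myd88 is at the top in both groups, at 64.3 FPKM in EAF2Faslpr and 67.7 FPKM in Faslpr cells, and Tlr2 at the bottom, at 0.375 FPKM in EAF2Faslpr and 0.113 FPKM in Faslpr cells.

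The genes also differed in how they varied from library to library, given as log2 CPM of a gene minus its mean over the 8 libraries. In EAF2Faslpr replicate 3 this value was 1.62 for Irf5, 1.61 for Tlr2, 0.67 for Tlr1 and 0.67 for Tlr7, the highest of the 8 libraries for each. In the same library it was −0.58 for Tlr9 and −0.39 for Myd88, the lowest of the 8 for each. Irf8 was highest in EAF2Faslpr replicate 1, at 0.44. Among Faslpr libraries, Tlr2, Tlr7, Irf5 and Irak4 were highest in replicate 3, whereas Tlr1, Irf8 and Unc93b1 were highest in replicate 4. All 5 genes called over all libraries were also called without EAF2Faslpr replicate 3, with log2 fold changes of 0.72 for Tlr1, 1.42 for Tlr2, 0.56 for Tlr7, 1.57 for Irf5 and 0.44 for Irf8, and with adjusted p of 0.0488, 0.0439, 0.0493, 0.0205 and 0.0431 in that order. Over all libraries, Tlr2 had passed the filter on low counts through EAF2Faslpr libraries alone, so its call carries that limit.

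**Figure D3:**
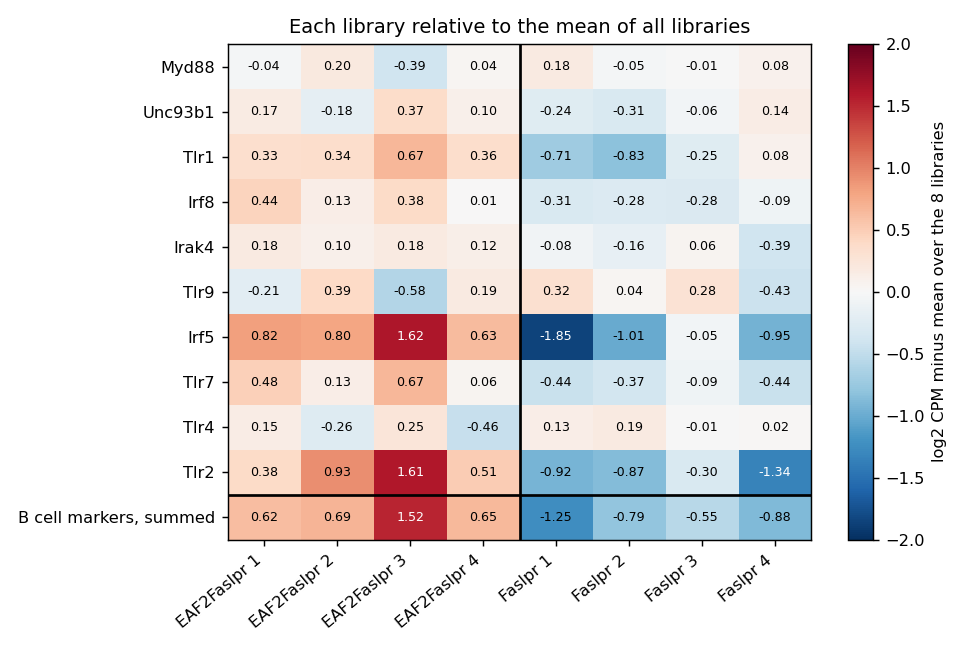
Log2 CPM of each gene in each library minus the gene's mean over the 8 libraries, with the summed B cell markers in the bottom row. Columns are libraries, EAF2Faslpr left of Faslpr, and red is above and blue below the mean. In EAF2Faslpr replicate 3, Irf5 at 1.62, Tlr2 at 1.61 and the B cell sum at 1.52 are the darkest red cells, and Tlr9 at −0.58 is blue.

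For each gene, the genes with the most similar profile were found by the root mean square difference of centred log2(CPM + 1) over the 8 libraries, among 9678 genes that averaged at least 5 CPM. Those nearest to Irf5 were Napsa (0.128), Cd74 (0.130) and Fgd2 (0.131), and those nearest to Tlr7 were Gm2a (0.109), Mif4gd (0.118) and Ctss (0.124). Nearest to Tlr1 were Arl4c (0.122), Macir (0.150) and Jakmip1 (0.164), nearest to Tlr2 were Map3k15 (0.108), Znrf1 (0.121) and Marcks (0.140), and nearest to Irf8 were Wdr92 (0.0420), Kifc5b (0.0766) and Smim8 (0.0768). The genes that were not called had other neighbours: Tlr9 had Utp14b (0.146), Gpd1l (0.161) and Ncoa7 (0.172), Tlr4 had Trnt1 (0.0860), Ndufaf6 (0.0915) and B3galt6 (0.0992), and Myd88 had Pla2g12a (0.0660), Prorp (0.0737) and Ppp2r5d (0.0779). Unc93b1 was nearest to Ppdpf (0.0699), Phyh (0.0731) and Fas (0.0758), and Irak4 to Fndc3a (0.0422), Klf13 (0.0429) and Ptp4a2 (0.0450). Smaller values are easier to reach for a gene that varies little, and profiles over 8 libraries are a description only. The 1 CPM added before the log also flattens the profile of Tlr2, which lies near that level. Its root mean square around its own mean was 0.363, against 0.870 for Irf5, a gene of similar fold change. The neighbours of Tlr2 match that flattened profile.

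Cells other than T cells also carry these genes, so markers of cell types that could enter the sort were measured in the same libraries. All 15 B cell markers tested rose, by a median of 4.003-fold (2.001 on the log2 scale), with summed levels of 420, 440.0, 783 and 429 CPM in EAF2Faslpr replicates 1 to 4 and 115, 158, 187 and 148 CPM in Faslpr replicates 1 to 4. Spib, a transcription factor also used by plasmacytoid dendritic cells, measured 52.6 ± 14.8 CPM in EAF2Faslpr and 32.1 ± 5.06 CPM in Faslpr cells. Pax5, the defining factor of B cells, measured 32 ± 10.9 CPM in EAF2Faslpr and 5.50 ± 2.03 CPM in Faslpr cells (log2 fold change 2.54, adjusted p = 0.000467), so it was present in both groups. Without EAF2Faslpr replicate 3, 13 B cell markers were called. The 5 genes that rose here rose beside these markers, whose part in the result was not tested. In bulk libraries more cells of a type and more RNA of a gene per cell cannot be told apart.

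Macrophage and monocyte markers summed to 67.2 to 174 CPM in EAF2Faslpr and 50.8 to 66.7 CPM in Faslpr libraries, where 174 CPM was EAF2Faslpr replicate 3 and the other EAF2Faslpr libraries reached 101 CPM. By test, 4 of the 10 rose (among them Lyz2, Cybb and Mpeg1), or 2 without any 1 of Faslpr replicates 1, 2 and 4. Lyz2, lysozyme of myeloid cells, measured 75.1 CPM in EAF2Faslpr replicate 3 and 6.36 to 10.5 CPM in the other EAF2Faslpr libraries. Cybb, a subunit of the phagocyte oxidase that B cells also express, measured 28.9 ± 5.91 CPM in EAF2Faslpr and 10.5 ± 4.55 CPM in Faslpr cells (adjusted p = 0.00539), whereas Cd68, a lysosomal protein of macrophages, measured 27.2 ± 3.70 CPM in EAF2Faslpr and 32 ± 5.56 CPM in Faslpr cells and was not called (adjusted p = 0.330). Neutrophil markers summed to 15.2 to 122 CPM in EAF2Faslpr and 14.1 to 18.9 CPM in Faslpr libraries. The value of 122 CPM was that of EAF2Faslpr replicate 3, and the other EAF2Faslpr libraries reached 20.9 CPM. None of the 6 neutrophil markers tested was called by edgeR, 5 had an unadjusted p under 0.05, DESeq2 called 1 and limma-voom 0, while edgeR called 3 without EAF2Faslpr replicate 1 and 4 without EAF2Faslpr replicate 2. Cxcr2, a chemokine receptor of neutrophils, measured 11.4 ± 1.68 CPM in EAF2Faslpr and 12.5 ± 1.96 CPM in Faslpr cells. Its log2 fold change was −0.12, whereas 5 of the 6 tested were above 0, with a median of 3.22 over the 6. The largest was that of S100a8, at 3.74. S100a8 measured 24.9 CPM in EAF2Faslpr replicate 3 and 0.655 to 1.60 CPM in the other EAF2Faslpr libraries.

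Markers of plasmacytoid dendritic cells, which use TLR7 and TLR9, summed to 99.3 to 109 CPM in EAF2Faslpr and 68.0 to 87.9 CPM in Faslpr libraries, and 2 of the 5 tested rose (Ccr9 and Runx2), or 1 without any 1 of EAF2Faslpr replicates 2, 3 and 4 and Faslpr replicates 1 and 2. Runx2, a transcription factor not specific to these cells, measured 44.2 ± 4.42 CPM in EAF2Faslpr and 26.6 ± 1.58 CPM in Faslpr cells (adjusted p = 0.000758). Without Runx2 the sums of the groups overlapped. Siglech and Klk1, also on this list, did not pass the filter on low counts. Of the 5 tested, 4 had a log2 fold change above 0, and Cox6a2 had −0.95 (adjusted p = 0.125). None of 3 conventional dendritic cell markers tested was called by edgeR, and 0 had an unadjusted p under 0.05. Their sums were 18.4 to 38.9 CPM in EAF2Faslpr and 27 to 48.1 CPM in Faslpr libraries, and Itgax, the integrin CD11c, measured 28.0 ± 10.02 CPM in EAF2Faslpr and 35.3 ± 8.75 CPM in Faslpr cells (adjusted p = 0.494). Of 5 antibody-secreting cell markers tested, 1 fell and 4 were not called (2 fell without EAF2Faslpr replicate 1 or Faslpr replicate 3), and the sums were 639 to 783 CPM in EAF2Faslpr and 805 to 930.4 CPM in Faslpr libraries. Sdc1, the surface proteoglycan CD138, was not called, at 365 ± 31.8 CPM in EAF2Faslpr and 439 ± 43.9 CPM in Faslpr cells (adjusted p = 0.0912). The gene that fell was Xbp1, a transcription factor of secretory cells, at 208 ± 23.6 CPM in EAF2Faslpr and 290.2 ± 12.7 CPM in Faslpr cells (adjusted p = 0.00497). No listed marker in the table was at 0 in all libraries.

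**Figure D4:**
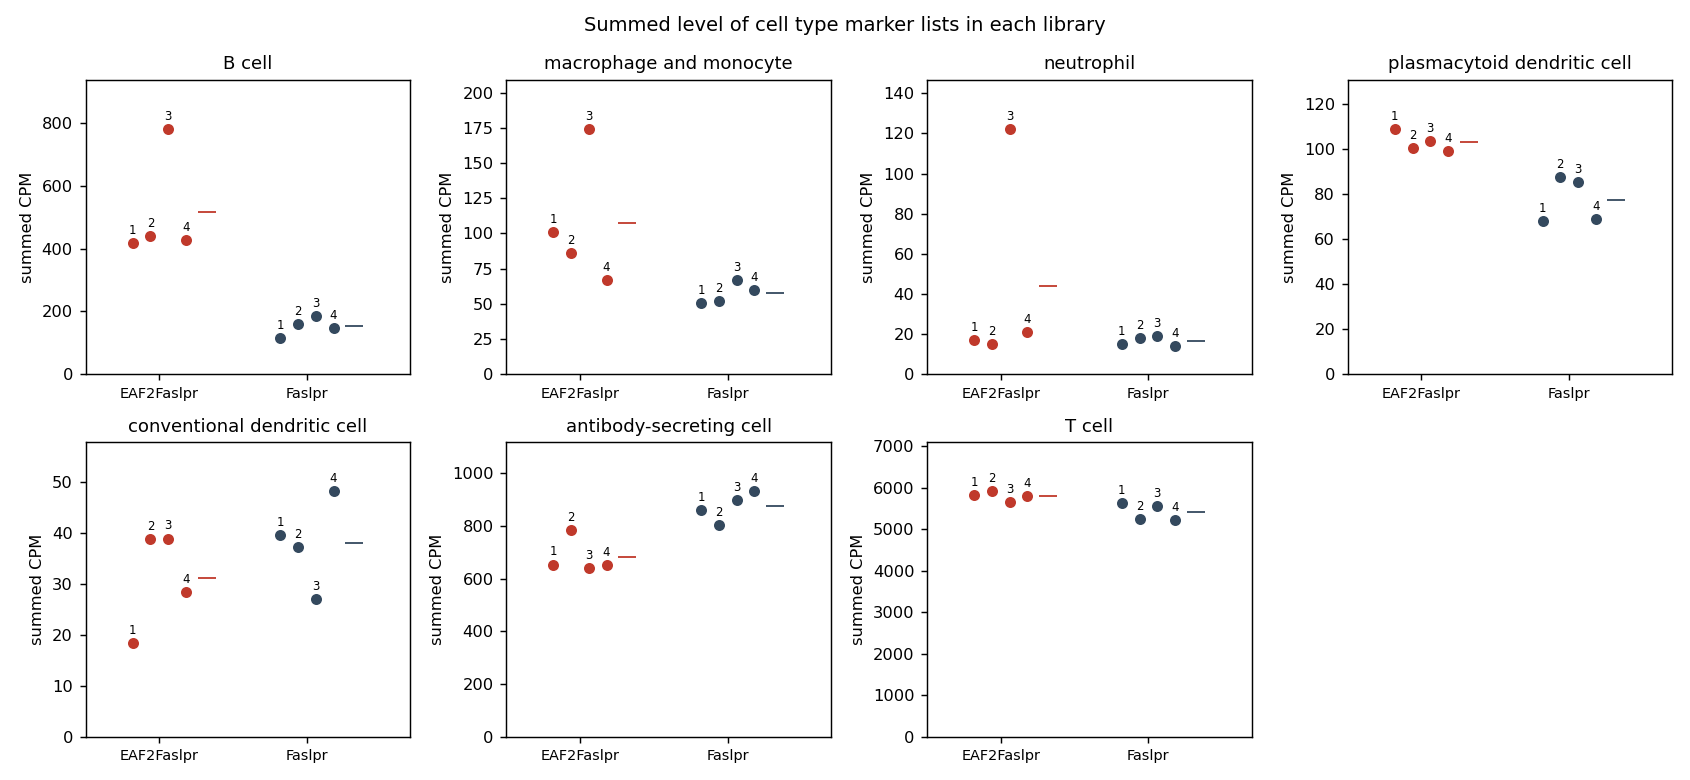
Summed CPM of the tested markers of 7 cell types in each library, with EAF2Faslpr in red to the left of Faslpr in dark blue. Points are libraries with their replicate numbers, and lines are means of 4. The B cell sums run from 420 to 783 CPM in EAF2Faslpr and from 115 to 187 CPM in Faslpr libraries, and the neutrophil sum of 122 CPM belongs to EAF2Faslpr replicate 3.

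Beyond these 10 genes, 6 lists of other genes of the system were read from the same test, and of their 69 tested genes 19 rose and 3 fell, where 7.14% of all genes tested rose and 4.96% fell (the median log2 fold change of the 69 was 0.12). Those shares are also the background for the counts of each list. The lists were chosen with earlier results of these data known, so the counts do not test them as sets. Of the other Toll-like receptors only Tlr6 and Tlr12 were tested, and neither was called by edgeR (1 had an unadjusted p under 0.05, and DESeq2 and limma-voom each called 1, Tlr6). Tlr12, a receptor of mouse that pairs with TLR11, differed by 0.07 on the log2 scale (adjusted p = 0.844). Tlr3, Tlr5, Tlr8, Tlr11 and Tlr13 did not pass the filter on low counts. Tlr3, the receptor of double-stranded RNA, had 12, 9, 30 and 17 estimated reads in EAF2Faslpr libraries and 9, 8, 4 and 2 in Faslpr libraries.

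Of the 15 genes for accessory and trafficking proteins, 4 rose, 1 fell and 10 were not called (median log2 fold change 0.12). Cd180, a receptor-like protein of B cells, and Ly86, its partner MD-1, both rose. Cd180 measured 8.03, 7.37, 13.7 and 8.17 CPM in EAF2Faslpr libraries and 1.43, 2.14, 2.92 and 2.04 CPM in Faslpr libraries. The groups were far apart for Cd180 (log2 fold change 2.12, adjusted p = 0.000818), and Ly86 measured 6.85 ± 2.28 CPM in EAF2Faslpr and 2.03 ± 0.700 CPM in Faslpr cells (1.75, adjusted p = 0.00353). Pld4, an endosomal nuclease that degrades single-stranded nucleic acid, measured 18.1 ± 4.74 CPM in EAF2Faslpr and 7.01 ± 2.32 CPM in Faslpr cells (log2 fold change 1.37, adjusted p = 0.00602). Lgmn, an endosomal protease that cleaves TLR9, measured 7.81 ± 1.56 CPM in EAF2Faslpr and 3.95 ± 1.05 CPM in Faslpr cells (0.98, adjusted p = 0.0166). Hsp90b1, the chaperone gp96 that folds Toll-like receptors in the endoplasmic reticulum, fell to 1314 ± 67.0 CPM in EAF2Faslpr cells, against 1757 ± 134 CPM in Faslpr cells (log2 fold change −0.42, adjusted p = 0.00575). The co-receptors of TLR4 were not called, at log2 fold changes of −0.05 for Cd14 (adjusted p = 0.944) and −0.16 for Ly96 (adjusted p = 0.707), and the sign of Cd14 changed without EAF2Faslpr replicate 1 (0.20).

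Of the 23 adaptor and kinase genes, 5 rose and 18 were not called (median log2 fold change 0.08). Pik3ap1, the adaptor BCAP that links the receptors to PI3K, measured 14.0 ± 3.27 CPM in EAF2Faslpr and 4.05 ± 1.39 CPM in Faslpr cells (log2 fold change 1.78, adjusted p = 0.00159). Btk, a kinase of B cells and myeloid cells, measured 7.77 ± 2.11 CPM in EAF2Faslpr and 2.55 ± 1.15 CPM in Faslpr cells (1.60, adjusted p = 0.00791). The 3 others were near the threshold: Ticam2 (1.49, adjusted p = 0.0346), an adaptor of TLR4, Irak2 (0.92, adjusted p = 0.0289), a kinase downstream of IRAK4, and Ikbke (0.30, adjusted p = 0.0289), a kinase of interferon regulatory factors. Ticam2 lost its call without any 1 of the 4 EAF2Faslpr replicates or of Faslpr replicates 1 and 2 (adjusted p up to 0.0900). Irak2 lost its call without any 1 of EAF2Faslpr replicates 1, 3 and 4 or Faslpr replicates 1, 2 and 4 (up to 0.0806), and Ikbke without any 1 of EAF2Faslpr replicates 2, 3 and 4 or Faslpr replicates 1 and 2 (up to 0.101). Among genes that were not called, Irak1, the kinase that IRAK4 phosphorylates, differed by −0.09 on the log2 scale (adjusted p = 0.554), and Traf6, the ubiquitin ligase that follows it, 0.19 (adjusted p = 0.259).

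Of the 7 other IRF genes, 1 rose and 2 fell (median log2 fold change 0.02). Irf2, an antagonist of IRF1, fell to 259.8 ± 20.7 CPM in EAF2Faslpr cells, against 391 ± 30.6 CPM in Faslpr cells (log2 fold change −0.59, adjusted p = 0.00148). Irf1 measured 232 ± 32.1 CPM in EAF2Faslpr and 171 ± 27.1 CPM in Faslpr cells with overlapping libraries (0.43, adjusted p = 0.0481), and lost its call without any 1 of EAF2Faslpr replicates 1, 3 and 4 or Faslpr replicates 1, 2 and 4 (up to 0.143). Irf3 (−0.11, adjusted p = 0.573) and Irf7 (0.19, adjusted p = 0.486), which drive type I interferon genes, were not called.

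Of 11 genes tested for sensing nucleic acids in the cytosol, 2 rose and 9 were not called (median log2 fold change 0.04). Sting1, the adaptor of the cytosolic DNA sensor cGAS, had 45.4, 43.6, 45.0 and 42.3 CPM in EAF2Faslpr libraries and 22.1, 22.0, 29.6 and 26.4 CPM in Faslpr libraries. The EAF2Faslpr values stood within a few CPM of each other and far above the Faslpr values (log2 fold change 0.81, adjusted p = 0.000818). Aim2, an inflammasome sensor of DNA, measured 309.8 ± 17.8 CPM in EAF2Faslpr and 254 ± 7.63 CPM in Faslpr cells (0.29, adjusted p = 0.0176), and lost its call without EAF2Faslpr replicate 2 (adjusted p = 0.0568) and without EAF2Faslpr replicate 3 (adjusted p = 0.0502).

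Genes known to be induced by Toll-like receptor ligands had the largest median of the 6 lists. Of 11 tested, 7 rose and 4 were not called (median log2 fold change 1.44). Tnf, the inflammatory cytokine, had 7.13, 10.5, 12.1 and 15.6 CPM in EAF2Faslpr libraries and 1.89, 2.56, 2.26 and 3.23 CPM in Faslpr libraries, groups that did not overlap (2.19, adjusted p = 0.000534). Socs3, an inhibitor of cytokine signalling, measured 27.7 ± 15 CPM in EAF2Faslpr and 3.38 ± 1.72 CPM in Faslpr cells (3.02, adjusted p = 0.0014), with EAF2Faslpr replicate 1 highest at 49.3 CPM. Of 3 costimulatory genes of antigen-presenting cells 2 rose, Cd40 to 5.38 ± 1.65 CPM in EAF2Faslpr cells, against 1.01 ± 0.456 CPM in Faslpr cells (2.41, adjusted p = 0.00133), and Cd86 to 3.13 ± 0.641 CPM in EAF2Faslpr cells, against 0.917 ± 0.373 CPM in Faslpr cells (1.76, adjusted p = 0.00501). The other, Cd80, was not called (0.18, adjusted p = 0.651). Nfkbiz (0.59, adjusted p = 0.0025) and Nfkbid (0.78, adjusted p = 0.00233), atypical inhibitors of the IkB family, rose in all EAF2Faslpr libraries above all Faslpr libraries. Ccl5, a chemokine of T cells and others, measured 33.2 ± 25.6 CPM in EAF2Faslpr and 9.48 ± 4.28 CPM in Faslpr cells (1.80, adjusted p = 0.0356). Its EAF2Faslpr replicate 1 held 71.4 CPM, and the log2 fold change without that library was 1.11 (adjusted p = 0.0504). The call was also lost without EAF2Faslpr replicate 3, Faslpr replicate 1 or Faslpr replicate 2 (adjusted p up to 0.106), and with limma-voom (adjusted p = 0.0650). The list genes that rose did so between the same groups as the B cell markers, and the part of those markers in the result was not tested. Within EAF2Faslpr, the highest library differed by gene. It was replicate 3 for the B cell sum and, among the list genes that rose, for Cd180, Ly86, Pld4, Btk, Pik3ap1, Cd40, Nfkbid and Aim2. It was replicate 1 for Socs3, Ccl5, Cd86, Nfkbiz, Lgmn, Ticam2, Irak2, Irf1 and Sting1, and replicate 4 for Tnf and Ikbke.

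**Figure D5:**
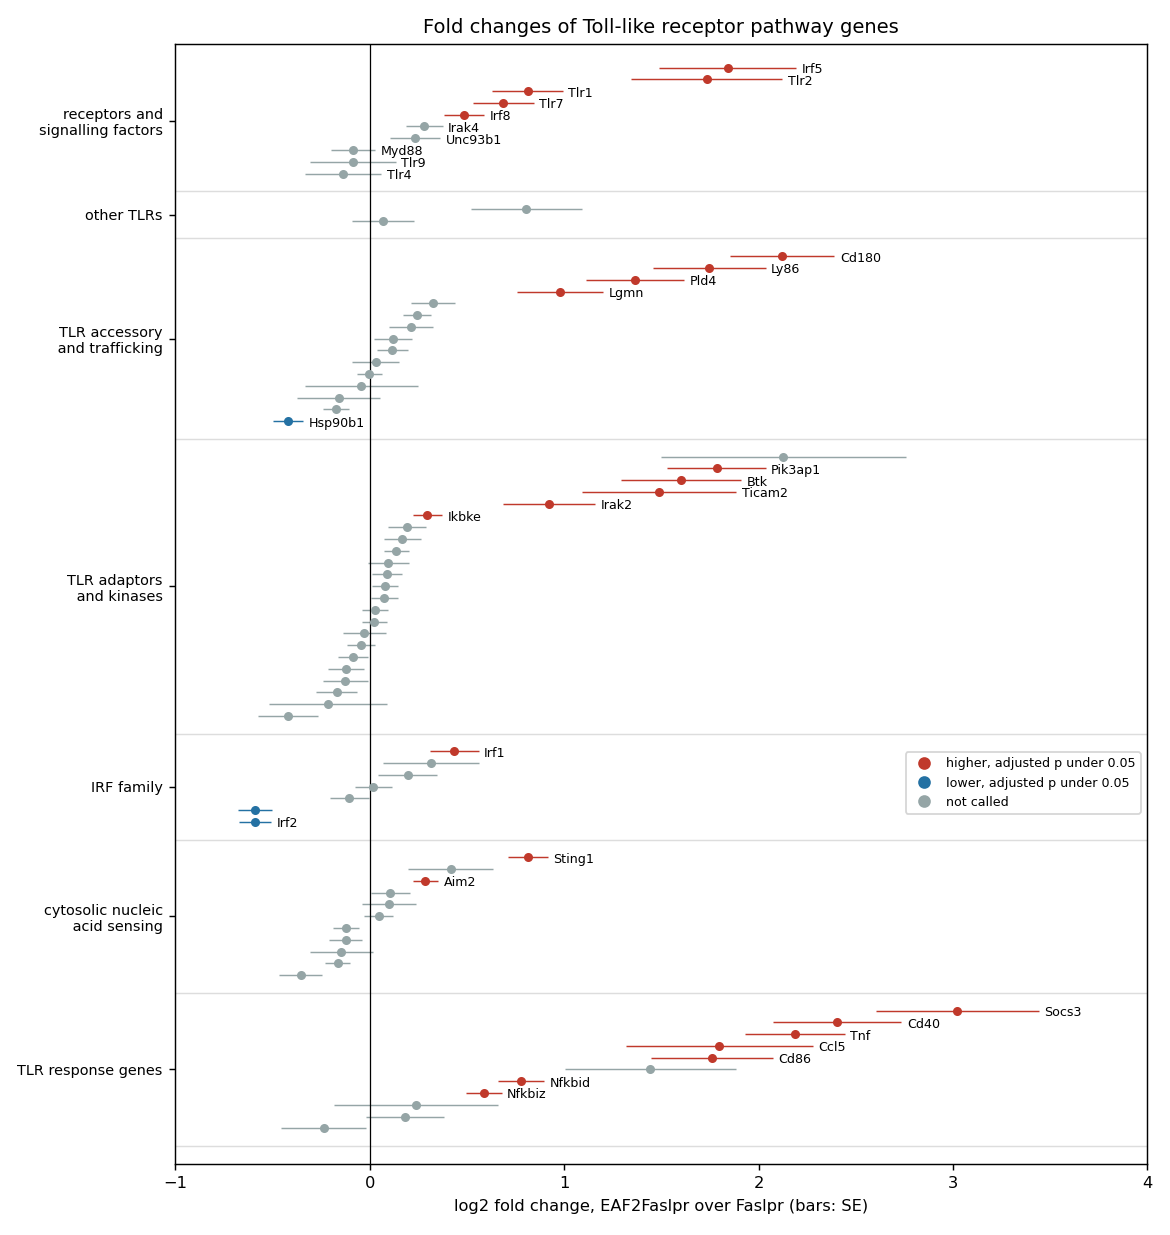
Log2 fold changes, EAF2Faslpr over Faslpr, of the 10 genes at the top and of the tested genes of 6 other lists below, with bars for the SE. Red is higher and blue lower at an adjusted p under 0.05, and grey was not called, and most of the called genes are named. In the top list 5 genes are red and 0 are blue, and across the other lists 19 are red and 3 are blue, with Socs3 farthest right at 3.02.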

How the data were processed

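RNA-seq libraries of B220+CD3+ spleen cells were compared, with groups and replicate numbers taken from the sample titles. Per the labels' protocols, TRIzol RNA was made into mRNA libraries and sequenced on DNBSEQ. The authors deposited 1 table with, for each gene and library, estimated counts (the expected counts of RSEM, unscaled) and FPKM, which the authors scaled for length and depth. Per the submitters' processing notes, HISAT2 2.2.1, Bowtie2 2.4.5 and RSEM 1.3.1 were used with GRCm39, in no stated role or order. The sources used here do not give the annotation or the strand setting. RSEM divides reads shared by similar genes by estimate, and 36.8% of the deposited estimated counts were whole within 0.001. A further 16 per-sample columns (TPM and normalised counts) were not used.

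The estimated counts were rounded, genes were kept by filterByExpr (12340 of 17384) and libraries scaled by TMM factors. All adjusted p-values are from edgeR's quasi-likelihood test (edgeR 4.0.16, R 4.3.3) over 8 libraries with no covariate, Benjamini-Hochberg adjusted over all genes tested, unless another tool is named. The SE is the size of the log2 fold change over the square root of F. Log2 fold changes are EAF2Faslpr over Faslpr. Within a group, replicates differed beyond sampling noise (chi-square per degree of freedom 9.45 to 36.5). Pairs with Faslpr replicate 4 gave 23.2 to 36.5, the other Faslpr pairs 13.2 to 15.4, and EAF2Faslpr pairs 9.45 to 23.5. The fitting was tested on simulated data. Alternatives were RLE and upper quartile scaling, DESeq2 1.42.0, limma-voom (limma 3.58.1), no filter on low counts, a mean of at least 1 CPM, a replicate block, both replicates numbered 4 left out, and each library left out.

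The 10 genes and the lists were chosen with earlier results of these data known. Named genes were the 10 genes, Eaf2, Fas, the genes called in each list (up to 6 in detail), the marker with the most CPM and the called marker with the smallest p of each cell type, and the 3 nearest profiles of each of the 10 genes, leaving out predicted genes. Not every gene named by this rule is reported here. The list genes given as not called or not tested and the overlap partners were chosen after values were seen. So were Lyz2, Mpeg1, Ccr9, S100a8, Cox6a2 and the permutation tests of sums and ratios. Promoter windows and transcripts came from RefSeq and GENCODE on GRCm38, and no coordinates were carried between builds.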

Additional observations from a re-analysis of the deposited data

Results flagged for a closer look

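In groups of 4 libraries, a value was picked out where its gap to the nearest other library, over the range of the group, exceeded Dixon's critical value of 0.829, which chance does in about 1 of 20 groups. Of 34 groups examined, 6 were picked out. In EAF2Faslpr replicate 3, Tlr1 measured 128 CPM, where the other EAF2Faslpr libraries held 102 to 104 CPM. In the same library Irf5 measured 14.0 CPM, where the others held 7.07 to 8.03 CPM. The summed B cell markers reached 783 CPM in EAF2Faslpr replicate 3, where the others held 420 to 440.0 CPM, and the summed neutrophil markers 122 CPM, where the others held 15.2 to 20.9 CPM. In EAF2Faslpr replicate 2, the summed antibody-secreting cell markers were 783 CPM, where the others held 639 to 653 CPM. In Faslpr replicate 4, Irf8 measured 51.4 CPM, where the other Faslpr libraries held 44.4 to 45.3 CPM.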

How the results depend on the processing

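Across the alternatives and the 8 fits that left out 1 library, 152 of 159 log2 fold changes of the 10 genes kept their direction and their side of the threshold. Leaving out 1 library gave 4 to 6 of the 10 genes called, all higher, and 990 to 1599 genes called overall (618 to 940 higher, 372 to 659 lower), with the lowest of each without Faslpr replicate 2. With both replicates numbered 4 left out, 403 genes were called lower, and 4 of the 10 genes were called. With a mean of at least 1 CPM, Tlr2 was not tested and 4 were called. In every other alternative 5 were called. Signs changed when 1 library was left out, with no call, for Tlr9 (log2 fold changes −0.248 to 0.0630, above 0 without EAF2Faslpr replicate 3 or Faslpr replicate 1), Myd88 (−0.173 to 0.0146, above 0 without EAF2Faslpr replicate 3), Tlr12 (−0.0552 to 0.164, below 0 without EAF2Faslpr replicate 1) and Cd14 (−0.216 to 0.205, above 0 without EAF2Faslpr replicate 1 or Faslpr replicate 3). The cause was not tested. Genes called in the 6 lists numbered 16 to 24 when 1 library was left out.

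With the replicate number as a block, 1425 genes were called, 1284 of them also called without it, and 5 of the 10 genes and 19 list genes were called. Ticam2, Irak2, Irf1 and Ccl5 were not called with the block, and Ticam2, Irak2, Ikbke, Irf1 and Aim2 not with both replicates numbered 4 left out. Deviations of same-numbered libraries correlated at 0.128, 0.168, 0.0639 and −0.0501 for replicates 1 to 4. EAF2Faslpr replicate 3 correlated best with Faslpr replicate 4 (0.163). These values cannot decide whether same-numbered libraries share more than a number, since a differently numbered pair reached a similar value. Depth limits Tlr2 most, since 4 to 8 reads per Faslpr library stand close to the floor of 3 reads.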
